A study of Homo sapiens with 8 samples.

Results

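Chromosome 17 was described here outside 2 loci, 65800001 to 66700000 and 77800001 to 78800000 on hg19, in a SON TSA-seq comparison of 786-O cells, an established human clear cell renal carcinoma line. Every deposited 100 kb window of the chromosome that did not overlap those loci was taken, which gave 7112 of the 278316 windows in the 9 deposited sets, with 790 to 792 windows a set. The choice used position only, and 187 windows at the loci were left out. Cells had received 2 µM PT2399, or an equal volume of DMSO vehicle, for 3 h, in RPMI medium with serum under atmospheric oxygen. For each treatment there were 2 SON pulldowns and 2 inputs, 8 libraries in all, and all of them came from this 1 cell line.

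For 4 of these libraries the other labels contradicted the title. Both libraries titled as DMSO pulldowns carried the labels input and PT2399, and both titled as PT2399 inputs carried the labels SON and DMSO. The titles were followed, and the direction of every change below rests on the deposited columns being named control and treatment. The authors gave 1 mean log2 concentration per treatment and window, so no value per library, no depth and no spread between replicates could be shown. The FDR in the authors' deposited table is therefore the measure of error, and since the labels do not say that the 2 replicates were separate cultures, it may cover technical spread only. The 9 sets are shifts of the same windows by 10 kb and are not replicates, so ranges over sets show only how far a value moves with the placing of the windows.

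Nuclear speckles are bodies rich in splicing factors and other RNA-processing proteins, and SON is one of their core scaffold proteins. In TSA-seq an enzyme coupled to the antibody deposits biotin on nearby DNA, so the SON signal of a window is high where that DNA lies close to speckles. Gene-rich, GC-rich chromatin is known to lie near speckles, while gene-poor chromatin at the nuclear lamina lies far from them. Chromosome 17 is a small, gene-rich chromosome that also holds long gene-poor stretches and the type I keratin cluster. PT2399 blocks HIF-2α, a hypoxia-inducible transcription factor that stays active in 786-O cells because they lack functional VHL, from pairing with its partner ARNT.

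The promoters of 4 genes in regions with a called change are printed to show the kinds of sequence those regions hold. They belong to SYNRG, PEMT and GGA3, each the first listed gene with a RefSeq promoter in 1 of the 3 measured regions of lowest FDR, and to KRT28, the first listed keratin. Each runs from 250 bases before to 50 bases after the start site, 5′ to 3′ on the gene's strand, from RefSeq on GRCh38.p14, a later build than that of the windows. Capitals mark the core of the hypoxia response element, ACGTG or GCGTG, or its reverse complement, CACGT or CACGC. The pair within CACGTG overlaps and was counted on both strands.
SYNRG: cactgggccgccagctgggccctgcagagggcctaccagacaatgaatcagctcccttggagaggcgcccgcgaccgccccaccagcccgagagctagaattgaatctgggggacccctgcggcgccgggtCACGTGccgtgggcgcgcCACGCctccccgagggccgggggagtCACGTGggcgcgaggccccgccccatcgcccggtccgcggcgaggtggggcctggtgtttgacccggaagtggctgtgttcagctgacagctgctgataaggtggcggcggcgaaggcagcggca
PEMT: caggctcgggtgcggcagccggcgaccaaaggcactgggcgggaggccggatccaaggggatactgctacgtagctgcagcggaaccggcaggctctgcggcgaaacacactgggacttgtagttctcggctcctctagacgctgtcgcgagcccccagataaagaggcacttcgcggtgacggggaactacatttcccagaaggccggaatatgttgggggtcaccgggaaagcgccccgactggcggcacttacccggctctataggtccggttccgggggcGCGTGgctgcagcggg
GGA3: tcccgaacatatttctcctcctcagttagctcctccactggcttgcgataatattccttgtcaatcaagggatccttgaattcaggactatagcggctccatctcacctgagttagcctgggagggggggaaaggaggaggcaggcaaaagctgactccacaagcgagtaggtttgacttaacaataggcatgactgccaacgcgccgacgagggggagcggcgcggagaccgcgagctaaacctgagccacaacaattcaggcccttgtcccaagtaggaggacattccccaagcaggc
KRT28: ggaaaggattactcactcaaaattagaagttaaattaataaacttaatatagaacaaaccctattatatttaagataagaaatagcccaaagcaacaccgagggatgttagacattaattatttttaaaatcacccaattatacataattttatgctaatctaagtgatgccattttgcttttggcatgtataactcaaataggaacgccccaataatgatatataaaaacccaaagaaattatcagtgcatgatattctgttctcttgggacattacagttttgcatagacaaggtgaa

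SYNRG lies at chr17:37609369-37609668 on the minus strand, and its promoter held 5 cores. The PEMT promoter, at chr17:17591659-17591958 on the minus strand, held 1 core. The promoters of GGA3, at chr17:75262314-75262613, and of KRT28, at chr17:40799910-40800209, both on the minus strand, held 0 cores. GC made up 71.7%, 65.3%, 54.7% and 30.0% of these promoters in the order printed. Of the 54 listed chromosome 17 genes with a RefSeq promoter, out of 69 listed genes, 35 (64.8%) held a core. The share was 53.1% over 1262 chromosome 17 promoters and 48.4% over 27305 promoters of all chromosomes. Median GC differed in the same order, at 63.3%, 61.0% and 58.3%. A core is a run of 5 letters and no evidence of HIF binding.

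SON signal on chromosome 17 was high. A window was taken as measured with a log2 concentration of 2 or more under PT2399 and under DMSO alike, and 5579 of the 7112 windows (78.4%) were measured, against 32.3% of 251730 windows on the other autosomes. Among 22 autosomes only chromosome 19 had a larger measured share, 90.0%. Measured chromosome 17 windows had a median of 9.65 with PT2399 and 9.76 with DMSO, against 8.46 with PT2399 and 8.57 with DMSO on the other autosomes. On this log2 scale chromosome 17 ranked 3rd of 22 autosomes by median level, at 9.70 for the mean of both treatments. Of its measured windows, 21.5% lay in the top decile of level, a share second to the 36.4% of chromosome 19.

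Windows with a mean concentration below 0 are at the floor, where the deposited values end at -0.11 for PT2399 and -0.07 for DMSO. On chromosome 17, 1361 windows (19.1%) were at the floor, against 62.1% on the other autosomes. Taken set by set, the limits of the exact binomial 95% interval of that share lay between 16.1% and 22.8%. Such an interval covers counting error only. It treats windows as independent, although floor windows lie side by side, so it is too narrow. Overlapping floor windows were merged, whether or not other windows between them lay above the floor. This gave 14 stretches that summed to 16.94 Mb, of which 13.38 Mb lay in 4 stretches of at least 1 Mb. These were 49460001 to 54700000, 22030001 to 25570000, which holds the centromere, 66700001 to 70130000, which borders a left-out locus, and 10710001 to 11880000. Whether reads can be placed in floor windows was not checked, so floor shares may include windows without readable sequence.

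Level differed along the chromosome, which was cut into 17 bins of 5 Mb. The last bin, 80 to 85 Mb, had the highest median over all windows, 11.17 with PT2399 and 11.31 with DMSO, and 99.0% of its windows lay in the top decile. The neighbouring bin from 75 Mb had 10.73 with PT2399 and 10.81 with DMSO. High levels also ran over 35 to 50 Mb, with medians of 10.25, 10.51 and 10.16 with PT2399 and 10.39, 10.63 and 10.26 with DMSO in the bins from 35, 40 and 45 Mb. The first 2 bins from the short-arm end reached 10.32 and 9.75 with PT2399, and 10.41 and 9.95 with DMSO.

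In 4 bins the median over all windows was the floor itself. These began at 10, 20, 50 and 65 Mb and had 51.1%, 70.9%, 90.7% and 81.2% of their windows at the floor. The bin from 25 Mb had 10.7% of windows at the floor and medians of 9.26 with PT2399 and 9.38 with DMSO, and the bin from 45 Mb had 9.78% at the floor. The other bins had at most 1.78% there. Intermediate medians, between 8.45 and 9.69 with PT2399 and between 8.48 and 9.63 with DMSO, were found in the bins from 15, 30, 55, 60 and 70 Mb. The highest window of the chromosome by the mean of both treatments lay at 79800001 to 79900000, with 12.43 with PT2399 and 12.40 with DMSO.

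**Figure D1:**
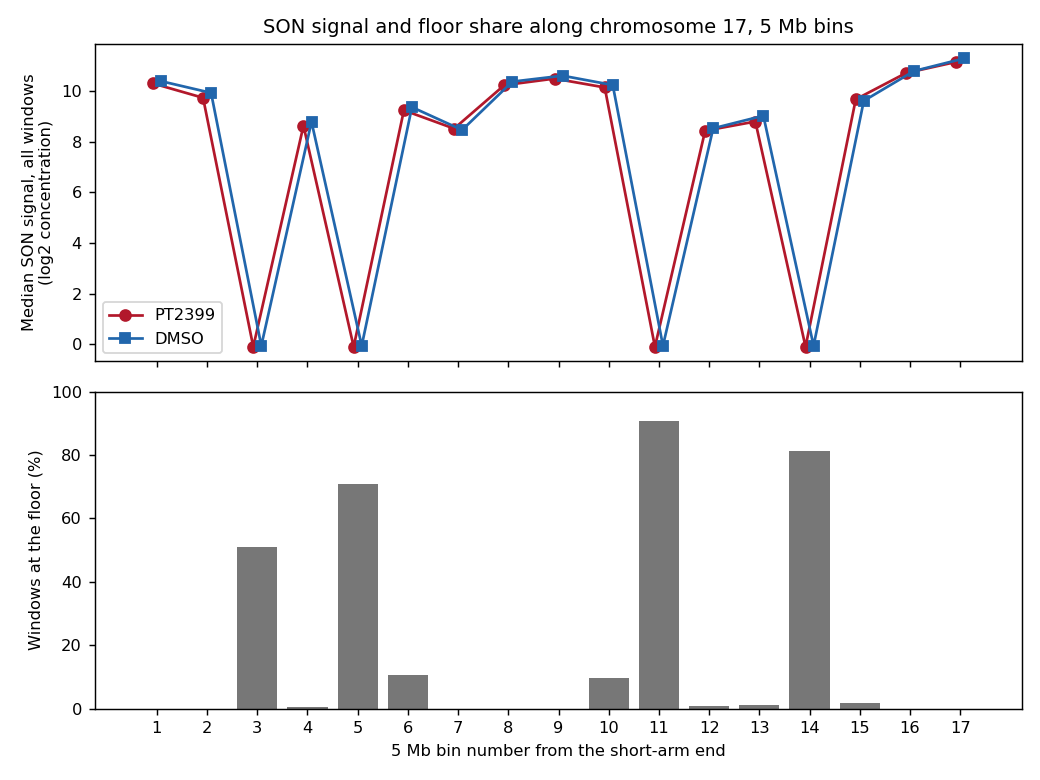
Median SON signal (log2 concentration, upper panel) over all 100 kb windows for PT2399 and DMSO, and the share of windows at the floor (%, lower panel), in 17 bins of 5 Mb numbered from the short-arm end. Signal is highest in bin 17, at 11.17 with PT2399 and 11.31 with DMSO, and the floor share is highest in bin 11, at 90.7%.

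In measured windows the levels under PT2399 and DMSO followed each other closely. Over measured chromosome 17 windows the PT2399 and DMSO levels had a Pearson r of 0.964 (0.960 to 0.971 over sets), a description across overlapping windows that share libraries. The median change, PT2399 minus DMSO, was -0.10 on the log2 scale (-0.11 to -0.10 over sets), with quartiles of -0.22 and 0.01. It was lower with PT2399 in 3987 of 5579 measured windows, 71.5%, where 67.5% of all measured windows of the series were lower. Summed on the linear scale, PT2399 signal was 93.3% of DMSO signal. Because the change is negative in most windows of the whole genome, with a median of -0.13 over all measured windows, and since the scaling between libraries is not stated, changes on chromosome 17 are to be read against that value.

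Windows of the same mean level on other autosomes were used to read this change. Each chromosome 17 window was set against the median of other autosomal windows in the same of 20 level bins, whose median change was -0.13, and the median difference was 0.03 (0.02 to 0.03 over sets; quartiles -0.09 and 0.14). Chromosome 17 was 12th from the lowest of 22 autosomes, tied with chromosomes 16 and 21, with chromosome 1 at -0.055 and chromosome 18 at 0.15 as the ends. The tables hold no library values, so the difference has no test.

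**Figure D2:**
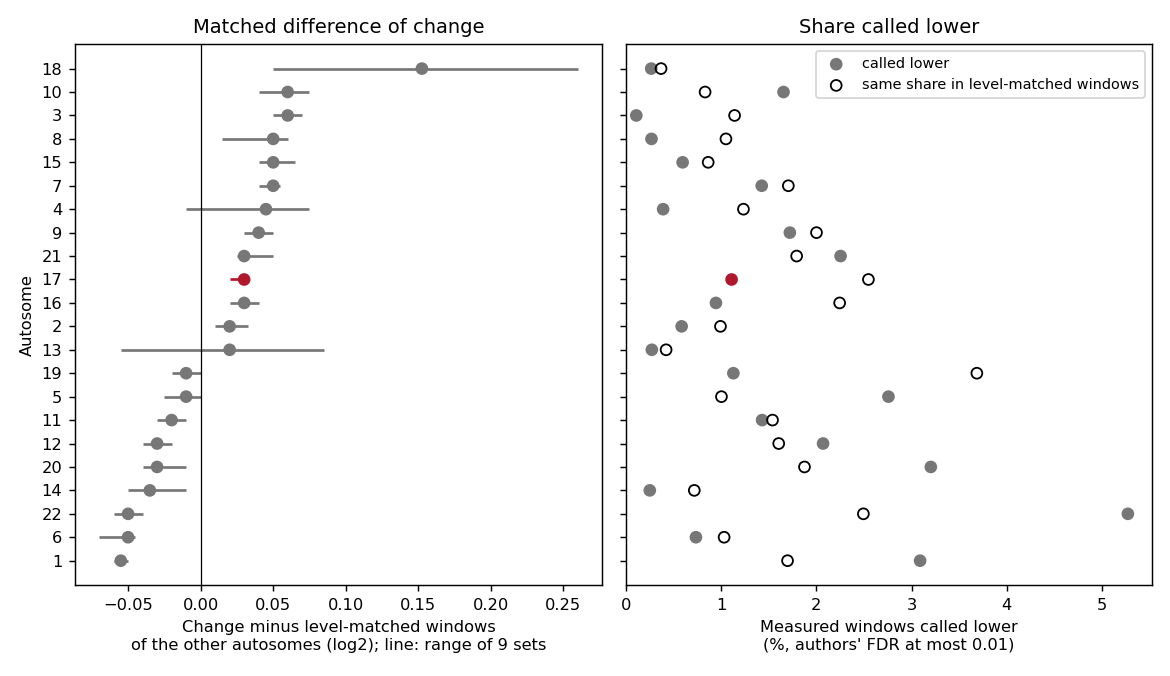
Left, the median change minus that of level-matched windows of the other autosomes (log2) for 22 autosomes, chromosome 17 in red, with lines from the lowest to the highest of 9 sets. Right, the share (%) of measured windows called lower in the authors' deposited table (filled) and the share in level-matched windows (open); chromosome 17 has 1.11% called and 2.55% in matched windows.

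The change was not even along the chromosome. The lowest medians among bins with at least 400 measured windows were -0.17 in the bins from 15 and 35 Mb and -0.15 in the bin from 5 Mb. In the bin from 35 Mb 93.1% of windows were lower with PT2399. The changes nearest to 0 were -0.04 in the bin from 70 Mb and -0.05 in the bin from 75 Mb. Quartiles were -0.13 and 0.14 in the bin from 70 Mb, against -0.10 and 0.01 in the bin from 75 Mb. At an unadjusted p under 0.05 in the authors' deposited table, the bin from 70 Mb held 73 lower (background 15.3%) and 38 higher (background 1.95%) of 438 measured windows. Its median thus covers changes in both directions. Against level-matched windows, the bins from 5 and 35 Mb were below 0 in all 9 sets, by -0.02 and -0.035, and 6 bins were above 0 in all 9 sets. Among these 6, the bins from 20 and 65 Mb, with few measured windows, stood at 0.235 (0.0225 to 0.395 over sets) and 0.2175 (0.12 to 0.385 over sets). The bins from 25, 45, 70 and 75 Mb stood at 0.0625, 0.06, 0.07 and 0.08. Below 20 Mb the median change was -0.15, which was -0.01 against level-matched windows, and from 25 Mb on it was -0.09, which was 0.04 against them.

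In bins with few measured windows the change ranged widely over sets. The bin from 10 Mb had a median of -0.38 over 126 measured windows, but single sets gave -0.70 to -0.02. The bin from 50 Mb had 0.27 over 30 measured windows, 3 or 4 a set, with sets from -0.17 to 0.52. The bins from 20 and 65 Mb both had 0.10, over 118 and 68 measured windows, with sets from 0.01 to 0.265 and from 0.01 to 0.285. Spread followed level: the interquartile range of the change was 0.97 in 861 windows with a mean level under 8, against 0.15 in 1758 windows with a level of 10 to 11 and 0.13 in 585 windows at 11 or more.

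**Figure D3:**
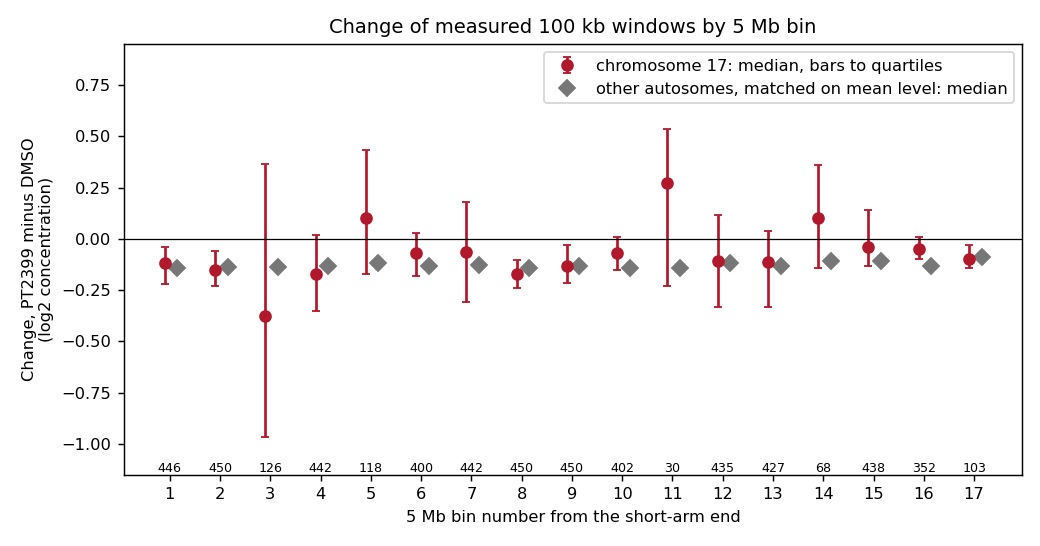
Median change of measured 100 kb windows (log2 concentration, PT2399 minus DMSO) in 17 bins of 5 Mb on chromosome 17 (red, bars to the quartiles), beside the median of level-matched windows of the other autosomes (grey). Numbers along the base are the measured windows of each bin. Bars are long in bins 3 and 11, where 126 and 30 windows were measured, and the median lies below 0 in 14 of 17 bins.

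At an FDR of at most 0.01 in the authors' deposited table, 62 measured chromosome 17 windows (1.11%) were lower with PT2399, where 1.55% of all measured windows of the series were. Level-matched windows of the other autosomes were called at 2.55%, which would be 142 windows here. The ratio of 0.436 placed chromosome 17 16th from the highest of 22 autosomes. With windows below the minimum in one treatment included, 72 of the 7112 windows were lower (background 0.614% of all windows). That background counts floor windows, which made up 62.1% of windows on the other autosomes and 19.1% here. The 72 windows are therefore not to be read as an excess over it. By the authors' deposited table there was 1 higher window (background 0.0853% of measured windows and 0.139% of all windows), against 3.18 from level-matched windows. At an unadjusted p under 0.05 in the authors' deposited table, lower windows numbered 1023 of those measured (18.3%), beside a background of 15.3%, and higher ones 84 (1.51%), beside 1.95%. These 2 backgrounds were not matched on level, so the 18.3% is not to be read as an excess.

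The called windows merged into 21 lower regions and 1 higher region, of which 19 lower regions held measured windows and covered 2.49 Mb. The lower windows changed by a median of -0.32 over the 62 windows, with a range of -0.75 to -0.22, and all lay at high signal, at or above a DMSO level of 9.34. Of these lower windows 0 had a mean level under 9, 11 lay at 9 to 10, 28 at 10 to 11 and 23 at 11 or more. The classes from 9 up held 1314, 1758 and 585 measured windows in that order. The called share was thus largest at 11 or more. The interquartile range of the change was also narrowest in that class, 0.13, so smaller changes can pass the threshold there. How far this sets the called share was not tested. The bins from 35 and 40 Mb held 35 of the 62 windows and 9 of the 19 regions. Their called shares of 3.11% and 4.67% stood beside 3.64% and 3.73% in level-matched windows of the other autosomes, and the bin from 80 Mb had 3.88% beside 4.98%. In the bin from 75 Mb 0 of 352 measured windows were called lower in the authors' deposited table, while 4.33% of level-matched windows were called. At an unadjusted p under 0.05 in that table, 35 windows of this bin were lower (background 15.3%). Of the 19 regions, 5 were called in 1 set only, 4 in at least 5 sets, and none in more than 7. None of the 19 passed the threshold once each set was centred on its own median change, with errors worked out from each window's deposited change and its p. With those errors and no centring 17 lower regions passed. The lowest adjusted p after centring was 0.015, so these calls depend on the scaling between treatments.

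The authors also deposited a list of genes in lower windows, without positions. The genes were placed by their order in that list, since its 19 runs of neighbouring chromosome 17 genes match 19 groups of called regions one to one; gene positions on hg19 were not used here, so the placing is an inference. The list named 69 genes in the regions described here, with 12 more at the left-out loci. Over the whole chromosome, left-out loci included, 75 of 1169 protein-coding genes (6.42%) were listed, 64 of them in the regions described here, against a background of 4.27% of all protein-coding genes. That background was not matched on signal, and 78.4% of windows were measured here against 32.3% on the other autosomes. The 6.42% is therefore not to be read as an excess.

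The lowest FDR among measured regions was at 35960001 to 36080000, placed at DDX52, an RNA helicase, and SYNRG, an adaptor of endosomal and Golgi vesicle traffic. Its best window had 9.80 with PT2399 and 10.37 with DMSO, a change of -0.57 with an FDR of 3.66e-05 in the authors' deposited table. The region was called in 3 sets. At 17410001 to 17560000 was PEMT, which methylates phosphatidylethanolamine to phosphatidylcholine. There the best window had 9.41 with PT2399 and 10.00 with DMSO, a change of -0.59 with an FDR of 0.00036 in the authors' deposited table, and 6 sets called it. These regions left 67.4% and 66.4% of the DMSO signal on the linear scale.

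Several called regions lay at very high signal and moved less. Spread of the change was narrowest at high signal, so smaller changes can pass the FDR threshold there. A region at 73140001 to 73270000, placed at GGA3, a Golgi sorting adaptor, MRPS7, a mitochondrial ribosomal protein, NUP85, a nuclear pore subunit, and SUMO2, a protein modifier, had 10.98 with PT2399 and 11.29 with DMSO. That change of -0.31 had an FDR of 0.00036 in the authors' deposited table. Another at 7630001 to 7760000, placed at KDM6B, which removes methyl groups from histone H3 lysine 27, had 10.62 with PT2399 and 10.96 with DMSO, a change of -0.34 with an FDR of 0.000384 in the authors' deposited table. The region nearest to the long-arm end, 80580001 to 80720000, held TBCD, a tubulin folding cofactor, and the fructosamine kinase gene FN3K, and had 10.96 with PT2399 and 11.29 with DMSO (FDR 0.00083 in the authors' deposited table).

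The stretch 38220001 to 38380000, called in 7 sets, was placed at NR1D1, a nuclear receptor of the circadian clock, MSL1, a scaffold of a histone H4 acetylation complex, and CASC3, a core protein of the exon junction complex. Its best window had 10.84 with PT2399 and 11.16 with DMSO, a change of -0.32 with an FDR of 0.000623 in the authors' deposited table. At 41150001 to 41300000 and 41310001 to 41530000 the list gave 1 run of genes that includes BRCA1, a homologous recombination protein, RPL27, a protein of the large ribosomal subunit, NBR1, a receptor of selective autophagy, and TMEM106A. The first of these regions had 10.14 with PT2399 and 10.61 with DMSO (FDR 0.00111 in the authors' deposited table). The second had 10.99 with PT2399 and 11.30 with DMSO (FDR 0.00066 in the authors' deposited table), and which of the genes lie in which was not resolved.

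The 10 regions with the lowest FDR also included 46130001 to 46240000, placed at CBX1, which encodes a heterochromatin protein that binds methylated histone H3. It had 10.31 with PT2399 and 10.72 with DMSO, a change of -0.41 with an FDR of 0.000939 in the authors' deposited table. The remaining one, 36300001 to 36450000, had 9.23 with PT2399 and 9.85 with DMSO, a change of -0.62 with an FDR of 0.00109 in the authors' deposited table. It was placed at TBC1D3F, a member of a family of near-identical copies, so reads there may be shared among copies and the value is uncertain. The same holds for the region with the most negative change of the 19, -0.75 at 62880001 to 62980000, placed at LRRC37A3, also of a duplicated family, with 8.59 with PT2399 and 9.34 with DMSO (FDR 0.00384 in the authors' deposited table). At 60540001 to 60650000, placed at the chromatin assembly kinase TLK2, the change was -0.73, with 8.77 with PT2399 and 9.50 with DMSO (FDR 0.00112 in the authors' deposited table).

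Apart from a region in the keratin block, given with that block, the other measured lower regions were those at 40240001 to 40370000, 42970001 to 43150000, 74400001 to 74510000, 34840001 to 34940000, 36580001 to 36680000 and 3440001 to 3540000. They were placed, among others, at HCRT, the precursor of the orexin neuropeptides, and KCNH4, a voltage-gated potassium channel, for the first, and at EFTUD2 for the second. Their best windows had 10.77, 10.91, 11.34, 9.96, 10.52 and 10.19 with PT2399, against 11.09, 11.19, 11.57, 10.34, 10.80 and 10.53 with DMSO, in that order. The changes ran from -0.38 to -0.23, and their FDRs from 0.00186 to 0.00999 in the authors' deposited table. The last of the 6, placed at the heat-gated channel gene TRPV1, and the one at 36580001, with an FDR of 0.00993 in the authors' deposited table, lay just inside the threshold of 0.01.

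**Figure D4:**
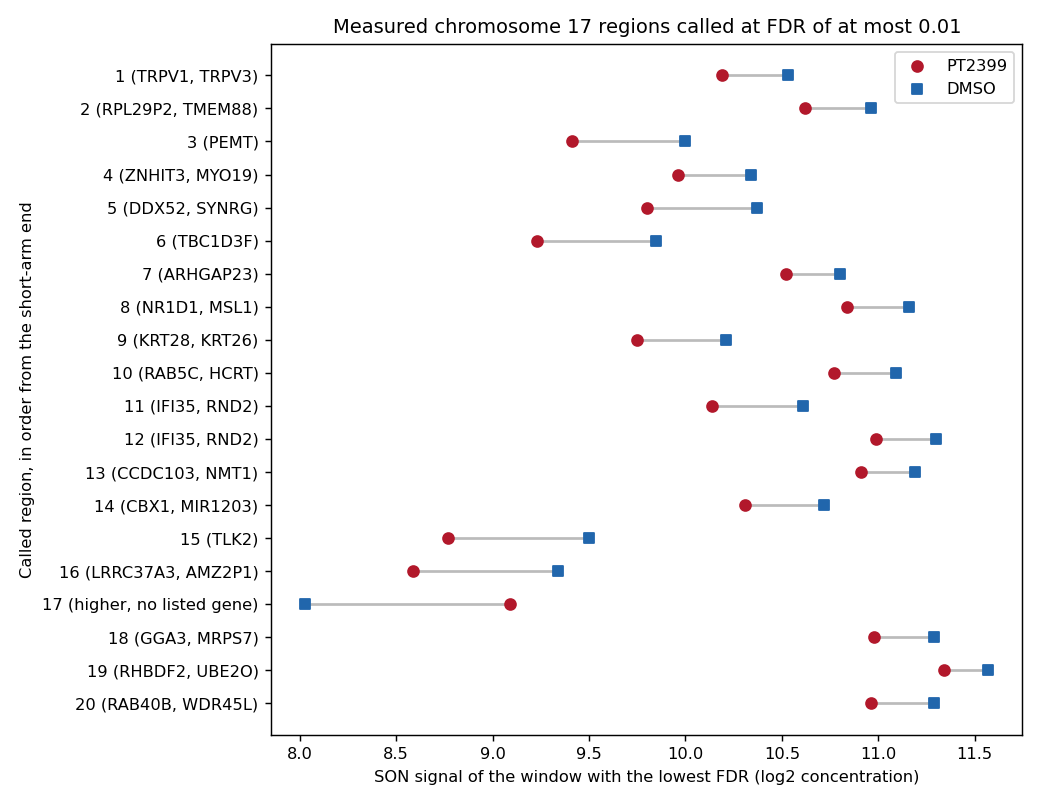
SON signal (log2 concentration) with PT2399 (circles) and DMSO (squares) in the window with the lowest FDR of each of the 20 measured chromosome 17 regions called in the authors' deposited table, numbered from the short-arm end, with up to 2 listed genes each. PT2399 is below DMSO in 19 regions and above it in region 17; regions 11 and 12 share 1 run of listed genes.

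The only higher 100 kb region lay at 64480001 to 64580000, where 1 set was called. It had 9.09 with PT2399 and 8.03 with DMSO, a change of 1.06 with an FDR of 0.00482 in the authors' deposited table. The neighbouring windows, which overlap it by 80 to 90 kb, were also higher, at 8.85 with PT2399 and 8.10 with DMSO on the left and 8.92 with PT2399 and 8.01 with DMSO on the right, but had FDRs of 0.175 and 0.0118 in the authors' deposited table. Centring moved the change to 1.19 and left the call in place. Since the median change was negative in every set, centring can only enlarge a higher change, so it is no check of this call.

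In 2 lower regions the PT2399 value was at or near the floor. At 10230001 to 10380000, called in 6 sets, the best window had -0.11 with PT2399 and 7.79 with DMSO (FDR 8.97e-07 in the authors' deposited table). The window starting at 10220001, 90 kb of which it shares, had 5.13 with PT2399 and 8.05 with DMSO, and an FDR of 0.387 in the authors' deposited table. At 63840001 to 63970000 the best window had -0.11 with PT2399 and 7.38 with DMSO (FDR 0.000259 in the authors' deposited table), while the window starting 10 kb before it had 4.15 with PT2399 and 7.24 with DMSO. A value at the floor gives no measured level, so the size of these changes is no measured fold. Outside the left-out loci 94 of 7112 chromosome 17 windows were below 0 with PT2399 and at 2 or more with DMSO, and 43 the other way. On the other autosomes these were 5355 and 6253 of 251730 windows, so both kinds made up a smaller share on chromosome 17.

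The keratin block, 38800001 to 39800000, is the part of the chromosome that holds the type I keratin and keratin-associated protein genes. Keratins form the filaments of epithelial cells and hair, and the data here hold no expression values. All 82 windows of the block were measured, with medians of 9.72 with PT2399 and 9.94 with DMSO. These were below the 10.30 with PT2399 and 10.50 with DMSO of the 352 other measured windows between 35 and 40 Mb. The median change of the block was -0.10 (-0.11 to -0.05 over sets), against -0.18 in those other windows. Level-matched windows of the other autosomes changed by -0.14, and the block stood 0.05 above them (0.03 to 0.09 over sets). In the block 67 windows were lower and 15 higher with PT2399; 1 was called lower and 0 higher in the authors' deposited table, with 12 lower and 0 higher at an unadjusted p under 0.05.

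The block fell in 3 parts, cut at 150 kb on either side of its centre after the values were seen. On the left, 27 windows had medians of 9.74 with PT2399 and 9.96 with DMSO, and all were lower with PT2399, by -0.46 to -0.06. That stretch holds the called window, 38870001 to 38970000, placed at KRT25, KRT26, KRT27 and KRT28, keratins of the hair root sheath, with 9.75 with PT2399 and 10.21 with DMSO (FDR 0.00255 in the authors' deposited table). In the middle 27 windows had medians of 9.43 with PT2399 and 9.51 with DMSO and changes of -0.22 to 0.34, with a lowest FDR of 0.359 in the authors' deposited table. The window with the lowest signal of the block lay there, at 39340001 to 39440000, with 9.09 with PT2399 and 8.75 with DMSO, a change of 0.34 with an FDR of 0.376 in the authors' deposited table. The 28 windows on the right had 10.32 with PT2399 and 10.42 with DMSO, a median change of -0.08.

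**Figure D5:**
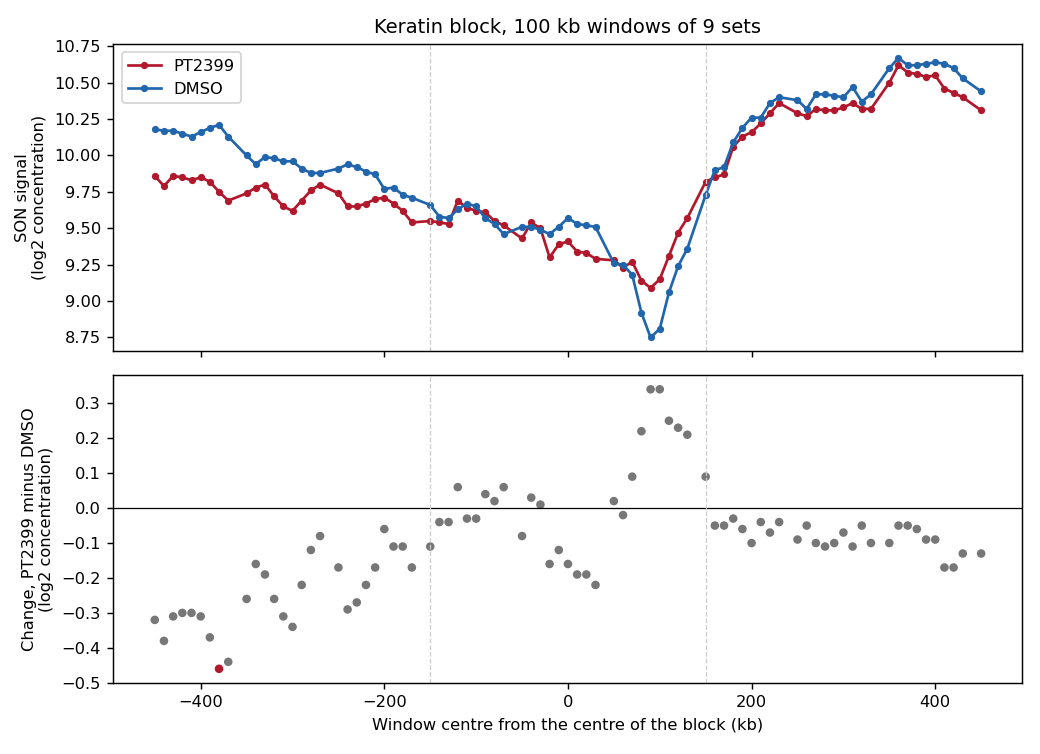
SON signal (log2 concentration, upper panel) with PT2399 and DMSO, and the change, PT2399 minus DMSO (lower panel), in the 82 overlapping 100 kb windows of the keratin block, by the distance (kb) of the window centre from the block's centre. The 1 called window is red, dashed lines mark 150 kb either side, and the PT2399 and DMSO curves cross in the middle part, where signal is lowest.

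At 50 kb, where 14249 of 556938 windows belong to the described stretches, 18.5% were at the floor and the median change of measured windows was -0.10, 0.02 above level-matched windows. There 28 measured windows (0.252%) were called lower in the authors' deposited table (background 0.357% of measured windows), in 16 regions, and 34 with windows below the minimum included (background 0.176% of all windows). Of the 19 measured 100 kb regions, 11 were overlapped by a measured 50 kb region. Lower 50 kb regions away from the 100 kb calls included 2760001 to 2820000, with 8.40 with PT2399 and 9.18 with DMSO, and 35500001 to 35550000, with 7.89 with PT2399 and 8.82 with DMSO, at FDRs of 0.00563 and 0.00894 in the authors' deposited table. A further 2 measured windows were higher (background 0.0291%), 1 of them at 64540001 to 64590000, with 8.11 with PT2399 and 6.67 with DMSO, which overlaps the 100 kb call. The other lay at 21220001 to 21270000, with 8.55 with PT2399 and 7.25 with DMSO (FDR 0.00739 in the authors' deposited table). Another higher region, 31080001 to 31135000, had 6.78 with PT2399 and the floor value of -0.07 with DMSO, which made 4 higher windows among all windows (background 0.0503%). Among measured 50 kb windows the lowest FDR was at 10240001 to 10315000, where the PT2399 level of 3.07 stood against 7.39 with DMSO, a change of -4.32 with an FDR of 0.000152 in the authors' deposited table. This lies inside the 100 kb region at 10230001 to 10380000, where PT2399 was at the floor. The overlapping 50 kb window starting at 10270001 had the floor value of -0.11 with PT2399 and 7.43 with DMSO, so the size of the change is uncertain. The 50 kb gene list held 19 genes of the described stretches, 15 of them also in the 100 kb list, and 4 only there: MYH13, SNORD124, PSMD3 and CSF3.

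Groups of genes on the chromosome were counted in the 100 kb list. Type I keratins had 4 of 27 genes listed, in the 1 called window above. Splicing factors had 1 of 9, EFTUD2, a GTPase of the U5 small nuclear ribonucleoprotein, ribosomal protein genes had 1 of 6, RPL27, and cancer genes had 1 of 23, BRCA1. None was listed among 27 keratin-associated protein genes, 10 HOXB genes, 16 CC chemokine genes, 12 olfactory receptor genes, 14 hypoxia and glycolysis genes, 8 matrix and adhesion genes and 6 muscle myosin heavy chain genes. The exact binomial 95% upper limits of these shares were 12.8%, 30.8%, 20.6%, 26.5%, 23.2%, 36.9% and 45.9%. They cover counting error only and treat genes as independent, although neighbouring genes can share windows, so they are too narrow. Even so they lie above the background of 4.27%, so that a difference from it was not detectable. In the 50 kb list (background 1.1%) the only member of any of these groups was MYH13, a myosin of extraocular muscle.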

How the data were processed

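Values were analysed from 786-O SON TSA-seq tables with windows of 100 kb, shifted by 10 kb between 9 sets, and of 50 kb, shifted by 5 kb. Bowtie2, DiffBind, Picard and bedtools, and the build hg19, are named without versions or roles per the submitters' processing notes. Read counting, use of inputs and scaling are not stated in the sources here. Per the file headers, the authors deposited log2 concentrations for control and treatment, as 1 mean per treatment. Per the file headers, each window also carries a p-value and FDR that the authors computed; the FDR matches Benjamini-Hochberg adjustment over about 11735 windows a set. Depth per library is unknown. The design allowed no test of library values, so calls are the authors' FDR of at most 0.01.

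The change is the treatment minus the control column. Called windows of all sets were merged where they overlapped by 1 bp or more. Level matching used 20 bins of mean level over other autosomal measured windows. The centred alternative took each window's error from its change and p-value. Regions were named by lowest FDR (10 lower, 5 higher), bins all, and genes if in the 50 kb list or a gene list; further genes named in a region were chosen after their values were seen. Gene lists and members were chosen with earlier results of these data known. A RefSeq gene table (GRCh38) served for names and neighbours only, and RefSeq promoters (GRCh38.p14) for sequence. No window sequence on hg19 was used here. Tools were Python 3.11.15 with scipy 1.17.1, pandas 2.3.3 and numpy 2.4.6, with figures drawn in matplotlib 3.10.9.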

Additional observations from a re-analysis of the deposited data

How the results depend on the processing

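No paired analysis was possible because the deposited columns are treatment means with no library values, and for the same reason no replicate could be left out. The 21 lower regions became 61 at an FDR of at most 0.05, 10 at 0.001, 5 when at least 5 sets had to call a region and 0 after centring on the median with implied errors, and single sets gave 4, 4, 3, 8, 13, 12, 10, 10 and 8. The 1 higher region became 6 at 0.05, 0 at 0.001, 2 with adjustment over all sets, 0 for at least 5 sets, 3 at 50 kb, 2 with the left-out loci included and 2 after centring, and was called in 1 set alone, with 0 in the other 8. The median change of -0.10 was -0.11 with the left-out loci included and in 4 single sets, and 0.02 after centring. The difference of 0.03 from level-matched windows was 0.02 at 50 kb, with the loci included, with 10 level bins and in sets 1 and 2, 0.0225 and 0.025 in sets 4 and 5, and 0.0375 when matched on DMSO level. The keratin block's change of -0.10 was -0.05 in sets 2 and 3 and 0.03 after centring. Its mean level of 9.84 was 8.87 at 50 kb, 9.87 as a mean, 9.95 over all overlapping windows, and 9.90 and 9.80 in sets 3 and 6. The genes listed numbered 69 in the 100 kb list and 19 in the 50 kb list. The floor share stayed between 18.5% and 19.7%. Of the 20 measured regions, 19 lost their call after centring and 0 reversed. Of the bins, 8 changed sign after centring and 1 at 50 kb. The cause of these differences was not tested. Depth per library is unknown, and low-signal windows had the widest spread of change, so a small change there was not detectable.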
